A study of Homo sapiens with 6 samples.

Results

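DAPK1, RASSF1, RASSF2, RASSF5, OPCML, HIC1, TCEAL7, PYCARD and RUNX3 are tumour suppressor genes reported to be silenced by DNA methylation in ovarian cancer. These 9 genes were chosen by name, were matched by Ensembl identifier, and were described here among the 62656 genes of the deposited tables. The RNA came from OVCAR5, a human ovarian cancer cell line, kept for 3 days with 100 nM of the DNA hypomethylating agent NTX301 or with dimethyl sulfoxide (DMSO) as control. Each treatment had 3 libraries, and the question the design poses is how expression differs between them. Whether libraries of 1 treatment are separate cultures is not stated, and p-values therefore measure only the spread between libraries, which may be technical.

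Methylation of cytosines in CpG dinucleotides around a promoter is associated with a silent gene, and maintenance methyltransferases copy the mark at each DNA replication. Hypomethylating nucleoside drugs trap these enzymes on DNA, so that the mark is lost as cells divide. The genes described here act in different ways: DAPK1 and PYCARD in cell death and inflammasome signalling, the RASSF proteins as scaffolds for RAS and MST kinases, OPCML at the cell surface, and HIC1, RUNX3 and TCEAL7 in the nucleus. No methylation was measured in the libraries analysed here.

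With NTX301, RASSF1, RASSF2, RASSF5, HIC1 and RUNX3 rose, DAPK1 fell, and PYCARD did not pass the test. TCEAL7 and OPCML had too few counts to be tested. TCEAL7 went from 0 counts over the 3 DMSO libraries to 39 over the 3 NTX301 libraries, while OPCML had 2 and 1. Thus 6 of the 7 tested suppressors changed (adjusted p under 0.05 in edgeR's quasi-likelihood test), beside 70.5% of the 19029 tested genes. The 5 that rose stand beside 35.4% of tested genes that rose, and the 1 that fell beside 35.1% that fell. HIC1 and RUNX3 rose by more than 1 on the log2 scale, as 13.4% of tested genes did, and DAPK1 fell by more than 1, as 8.55% did. In CPM (counts scaled to library size) the same 5 genes were higher without overlap between the treatments, beside 37.2% of tested genes, and DAPK1 lower without overlap, beside 36.5%. The median log2 fold change of the 7 was 0.84, and that of all tested genes was close to 0 (-0.00049).

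The 6 libraries held between 22131175 and 25743732 estimated counts. On the second principal component of log2 CPM, with 6.34% of the variance, DMSO replicate 3 stood apart, and leaving it out ended none of the calls on the suppressors. The 6 epithelial markers were present throughout, with a summed level of 4370 to 4550 TPM (a share of all transcripts that accounts for their length) with DMSO and 2450 to 2530 TPM with NTX301, and all but CDH1 fell. Of 6 ovarian carcinoma markers 4 were tested, of which 0 rose and 2 fell, beside 35.4% and 35.1% of all tested genes. The 2 that fell were MUC16 (240 to 54 counts) and FOLR1 (27.0 ± 3.91 to 25.4 ± 3.0 TPM). The fall of FOLR1 was past the threshold neither on the TPM scale nor without a scaling factor, DMSO replicate 2 or NTX301 replicate 2 or 3, and that of MUC16 not on log2(TPM + 1). PAX8 went from 5.88 ± 0.261 to 9.13 ± 0.592 TPM and MSLN from 3.66 ± 0.299 to 4.01 ± 0.48 TPM. WT1 had 3 counts with DMSO and 10 with NTX301, and SOX17 had 0 counts in every library. RUNX3, RASSF5 and PYCARD are also known from leukocytes, and HIC1 from fibroblasts. The summed TPM of 5 leukocyte markers ranged from 44.8 to 51.0 with DMSO and from 80.0 to 86.9 with NTX301. These levels came from CD14 (16.7 ± 0.764 to 27.2 ± 0.129 TPM), CD68 (27.9 ± 3.15 to 53.5 ± 3.16 TPM) and LYZ (2.98 ± 0.266 to 2.40 ± 0.16 TPM), while PTPRC and CD3E had 0 counts with DMSO, and 7 and 1 with NTX301. Of 6 fibroblast markers, 3 rose and 1 fell, beside the same shares of all tested genes. Of those that rose, COL3A1 passed the low-count filter through its NTX301 counts alone. The sum of the 6 went from between 1.43 and 1.88 to between 5.35 and 5.78 TPM. PDGFRA went from 44 to 392 counts over the libraries of a treatment (log2 2.99 ± 0.18), PDGFRB from 73 to 638 (2.97 ± 0.19) and COL3A1 from 17 to 53, LUM went from 114 to 80, and DCN and FAP went from 1 each to 6 and 7. The sum of 5 endothelial markers went from between 1.47 and 1.64 to between 2.30 and 2.46 TPM. The part of such transcripts in the results below was not tested, and in bulk RNA fewer cells with a transcript and less RNA per cell cannot be told apart.

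Sequence around start sites was taken for 7 of the 9 genes, all but HIC1 and TCEAL7, in 11 windows of 300 bases (250 before and 50 after a start site; RefSeq, GRCh38.p14). The count of CpG per window ranged from 7 to 50, against a median of 14 over all 35116 windows. The internal start of OPCML held 50 (as many or more in 1.29% of windows), the downstream start of RUNX3 held 38 (9.91%), the DAPK1 starts 37 and 33 (11.3% and 17.2%), and RASSF1 33 (17.2%). PYCARD held 23, the upstream and downstream starts of RASSF5 held 29 and 15, the upstream start of RUNX3 15, the far upstream start of OPCML 13, and RASSF2 7. The RASSF1 window lies 3530 bases downstream of the first start in GENCODE 29, and the RASSF2 window 8498 bases downstream. The PYCARD window lies 690 bases downstream of its first start, and the nearer DAPK1 window 639 bases. For each of these genes a more upstream start was not covered. The CpG-dense starts thus include a gene that rose (RUNX3), the gene that fell (DAPK1) and the gene that stayed near 0 (OPCML). The stretches below, printed 5′ to 3′ with each CpG in capitals, show the range of CpG density at the 5 start sites whose upstream sequence is free of annotated exons, which leaves out DAPK1. Each ends just before the RefSeq start site of its window, which may be internal to the gene.
OPCML internal start, chr11:132943837-132944086, minus strand, 41 CpG: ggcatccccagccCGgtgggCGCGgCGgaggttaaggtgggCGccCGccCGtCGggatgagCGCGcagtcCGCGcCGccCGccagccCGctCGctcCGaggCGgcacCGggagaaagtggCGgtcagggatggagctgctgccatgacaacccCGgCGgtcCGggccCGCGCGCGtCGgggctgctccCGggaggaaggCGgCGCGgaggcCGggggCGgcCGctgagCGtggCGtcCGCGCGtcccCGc
RUNX3 downstream start, chr1:24930277-24930526, minus strand, 33 CpG: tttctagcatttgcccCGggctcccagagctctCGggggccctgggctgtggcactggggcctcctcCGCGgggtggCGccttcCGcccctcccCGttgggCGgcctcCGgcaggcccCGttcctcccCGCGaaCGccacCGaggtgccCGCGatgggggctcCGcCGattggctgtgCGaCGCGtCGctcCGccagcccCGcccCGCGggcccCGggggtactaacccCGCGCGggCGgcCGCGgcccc
RASSF5 upstream start, chr1:206507281-206507529, plus strand, 23 CpG: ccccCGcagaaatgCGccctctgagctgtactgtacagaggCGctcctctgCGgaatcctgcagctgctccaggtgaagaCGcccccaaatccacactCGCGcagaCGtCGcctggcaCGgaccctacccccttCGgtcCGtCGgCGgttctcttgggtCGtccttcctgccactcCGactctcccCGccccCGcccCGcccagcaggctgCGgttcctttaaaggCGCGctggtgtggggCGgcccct
RASSF5 downstream start, chr1:206556914-206557163, plus strand, 10 CpG: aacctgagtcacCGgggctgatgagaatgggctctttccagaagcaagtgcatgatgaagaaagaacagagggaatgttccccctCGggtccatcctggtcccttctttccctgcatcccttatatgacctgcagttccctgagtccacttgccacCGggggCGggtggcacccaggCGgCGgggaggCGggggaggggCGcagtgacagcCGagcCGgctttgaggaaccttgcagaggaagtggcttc
RASSF2 internal start, chr20:4815148-4815397, minus strand, 7 CpG: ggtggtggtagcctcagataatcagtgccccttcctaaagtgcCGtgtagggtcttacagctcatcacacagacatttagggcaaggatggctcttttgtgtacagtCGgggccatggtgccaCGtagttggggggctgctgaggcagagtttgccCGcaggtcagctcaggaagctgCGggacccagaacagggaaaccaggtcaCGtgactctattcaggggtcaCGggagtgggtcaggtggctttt

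Levels are given first in TPM, so that genes can be set side by side. In DMSO-treated cells the order ran from DAPK1 (55.0 ± 1.98 TPM, mean ± SD, n = 3 here and below) and PYCARD (43.7 ± 2.16) through RASSF1 (17.1 ± 1.09) and RASSF5 (7.33 ± 0.275) to RASSF2 (1.74 ± 0.0751), HIC1 (1.51 ± 0.267) and RUNX3 (0.400 ± 0.0985). RASSF2 and HIC1 overlapped in their DMSO ranges, and the other neighbours in this part of the order did not. OPCML and TCEAL7 lay at the bottom, at or near 0. In NTX301-treated cells PYCARD (51.6 ± 3.43 TPM) and RASSF1 (35.7 ± 0.817) stood above DAPK1 (22.7 ± 0.584), followed by RASSF5 (11.2 ± 0.271), HIC1 (5.92 ± 0.942), RASSF2 (3.80 ± 0.353), RUNX3 (1.10 ± 0.0503), TCEAL7 (1.00 ± 0.223) and OPCML. RUNX3 and TCEAL7 overlapped there, and the other neighbours did not.

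**Figure D1:**
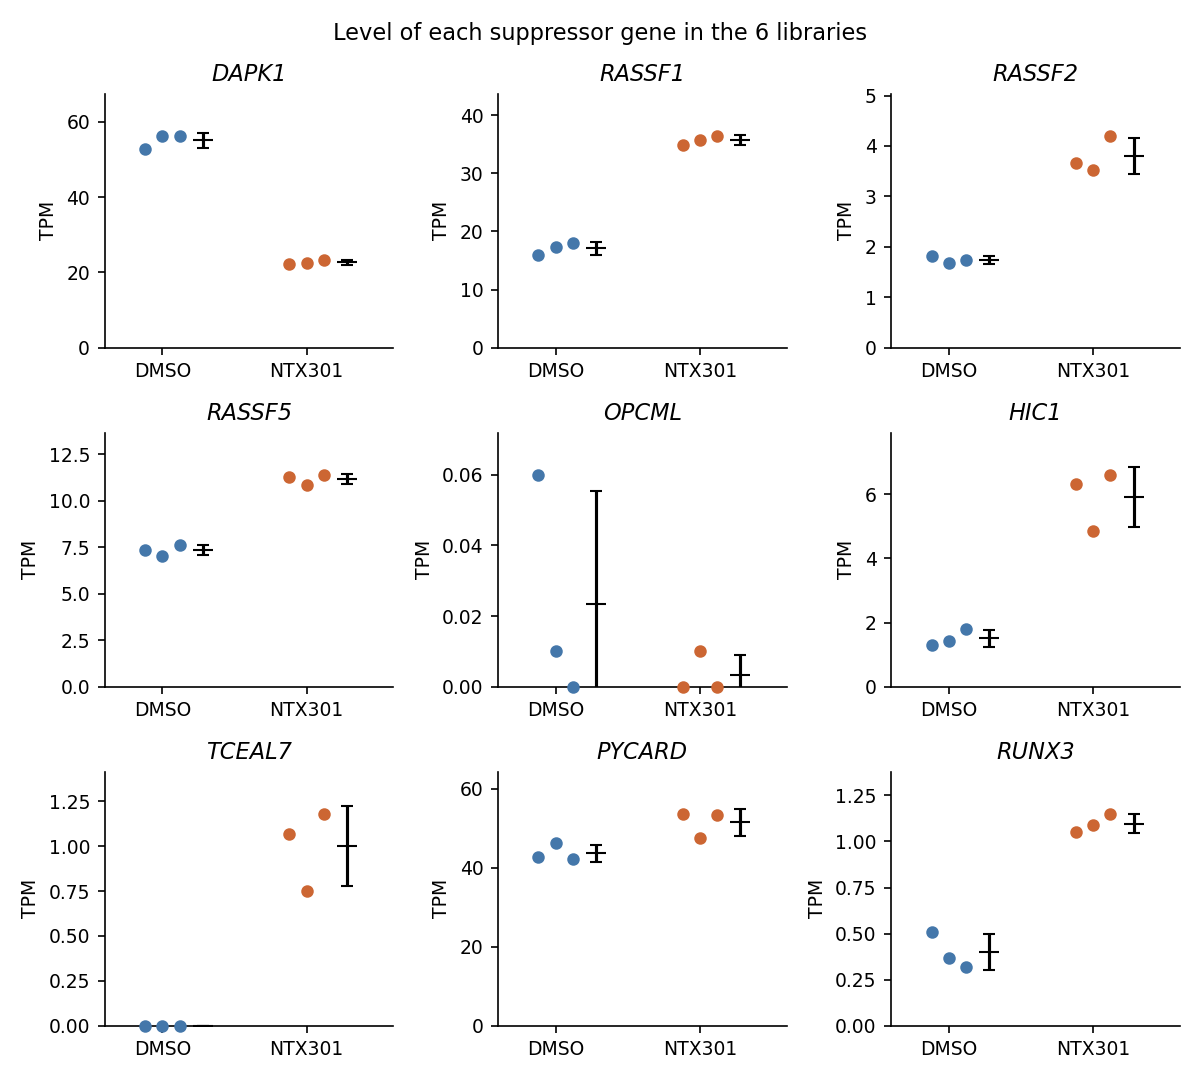
TPM of each suppressor in the 3 DMSO and 3 NTX301 libraries (points), with the mean and SD of each treatment (bars); each panel has its own axis from 0. DAPK1 sits lower in all NTX301 libraries, TCEAL7 is at 0 in all DMSO libraries, and only OPCML overlaps between treatments on this scale.

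DAPK1 encodes a calcium- and calmodulin-regulated kinase that promotes cell death and autophagy (ENSG00000196730.13, chromosome 9, 87497228 to 87708633 in GRCh38, plus strand). Its level was 52.75, 56.25 and 56.1 TPM in the DMSO libraries and 22.27, 22.4 and 23.34 TPM in the NTX301 libraries. All NTX301 libraries were below all DMSO libraries. The fall was -1.50 ± 0.04 on the log2 scale (estimate ± SE), or 2.83-fold lower (adjusted p = 5.5e-11 by edgeR), and 2.95% of tested genes fell further. DAPK1 was thus the most abundant of the suppressors with DMSO and the only tested one to fall. A gene of 174 bases without a symbol (ENSG00000219928) lies within DAPK1 on the same strand and was not past the threshold (log2 -0.09, adjusted p = 0.7 by edgeR).

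None of the other 4 kinases of the DAPK family was called lower, beside 35.1% of all tested genes. STK17A, also called DRAK1, rose by 0.33 ± 0.05 to 55.6 ± 2.01 TPM. DAPK2 and DAPK3 changed by 0.39 ± 0.14 and 0.16 ± 0.07 on the log2 scale (adjusted p = 0.025 and 0.046 by edgeR). With DESeq2, without a low-count filter, and without DMSO replicate 2 or 3 or NTX301 replicate 3, neither was past the threshold, and the number of family members called higher went from 3 to 1. STK17B (0.06 ± 0.06) was past it only without a scaling factor and on the TPM scale, as higher.

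RASSF1 encodes a scaffold of RAS, microtubules and the MST kinases, and its longer form RASSF1A is known as a frequent target of promoter methylation in tumours (ENSG00000068028.18, chromosome 3, 50329782 to 50340980, minus strand). Its level was 15.89, 17.35 and 18.02 TPM with DMSO and 34.82, 35.81 and 36.44 TPM with NTX301. The treatments did not overlap. RASSF1 rose by 0.84 ± 0.05 on the log2 scale (adjusted p = 5.1e-08 by edgeR). The gene tables sum over 5 transcripts, so they do not separate RASSF1A from RASSF1C, which starts downstream. The mean transcript length that RSEM assigned to the gene ranged from 1790.2 to 1814.8 bases with DMSO and from 1780.8 to 1786.8 with NTX301. These ranges did not overlap (exact permutation p = 0.1, two-sided, the smallest that 3 against 3 libraries allow), with a difference of -21.8 bases. RASSF1-AS1, which overlaps RASSF1 by 790 bases on the other strand, was not past the threshold (log2 -0.36 ± 0.29).

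RASSF2 encodes a scaffold that binds MST kinases (ENSG00000101265.16, chromosome 20, 4780023 to 4823645, minus strand). It was at 1.82, 1.67 and 1.74 TPM with DMSO and 3.67, 3.53 and 4.2 TPM with NTX301, without overlap. RASSF2 rose by 0.91 ± 0.10 on the log2 scale (adjusted p = 5.1e-06 by edgeR). RASSF5 encodes NORE1 and RAPL, effectors of RAS and RAP1 (ENSG00000266094.8, chromosome 1, 206507530 to 206589448, plus strand). It went from 7.34, 7.05 and 7.6 TPM with DMSO to 11.26, 10.87 and 11.39 TPM with NTX301. RASSF5 also did not overlap, but its rise was the smallest of the 5, at 0.38 ± 0.06 on the log2 scale (adjusted p = 0.00018 by edgeR), and 30.2% of tested genes rose more. EIF2D overlaps RASSF5 by 18157 bases on the other strand, and whether the counting used strand is not stated. EIF2D was at 29.6 ± 1.93 and 30.7 ± 0.261 TPM, and its log2 fold change was -0.16 ± 0.06 in the scaled counts, 0.05 without a scaling factor and 0.05 on log2(TPM + 1), the last 2 not past the threshold. Nor was it past the threshold with DESeq2 or without DMSO replicate 1 or 2 or NTX301 replicate 2 or 3.

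Of the 10 genes of the RASSF family, all tested, 4 rose and 5 fell, beside 35.4% and 35.1% of all tested genes. The median log2 fold change of the family was -0.20. RASSF4 was the only other gene of the family to rise (0.46 ± 0.12), and RASSF3 (0.05 ± 0.04) was past the threshold only without a scaling factor and on the TPM scale, as higher. RASSF7 fell by 1.42 ± 0.06, from 57.5 ± 3.99 to 24.9 ± 0.15 TPM, and RASSF6 by 1.06 ± 0.10. RASSF8, RASSF9 and RASSF10 fell by 0.46 ± 0.04, 0.63 ± 0.16 and 0.64 ± 0.08. RASSF7 to RASSF10 carry their RAS-association domain at the amino end, unlike RASSF1 to RASSF6, and all 4 of them fell, a split made after the values were seen. On the TPM scale RASSF9 was not past the threshold, with the same sign. Among 9 genes of the MST and LATS kinase module that RASSF proteins bind, 3 rose and 4 fell (median log2 fold change -0.14). Beside these counts stand the same 35.4% and 35.1% of all tested genes. STK4, which encodes the MST1 kinase, rose by 0.51 ± 0.05, the adaptor SAV1 by 0.32 ± 0.04 and LATS2 by 0.29 ± 0.04. NF2, which encodes the scaffold merlin, fell by 0.68 ± 0.06. It was the only 1 of the 4 still lower without a scaling factor or on the TPM scale, where STK3, MOB1A and MOAP1 were not past the threshold.

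HIC1 encodes a zinc finger repressor that acts with CTBP proteins and represses SIRT1 (ENSG00000177374.13, chromosome 17, 2054154 to 2063241, plus strand). Its level was 1.3, 1.42 and 1.81 TPM with DMSO and 6.31, 4.85 and 6.61 TPM with NTX301. Every NTX301 library exceeded every DMSO library. In counts, HIC1 rose by 1.36 ± 0.11 on the log2 scale, 2.58-fold, with an adjusted p of 5.1e-07 by edgeR, and 8.99% of tested genes rose more. The rise was not told apart from that of RUNX3 (1.23 ± 0.22), which was the larger without DMSO replicate 1, at 1.47 against 1.30. In mean TPM, where counts are divided by length, the ratio was 3.92, and the mean transcript length assigned to HIC1 also differed between treatments.

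That length was 5493.7, 5345.7 and 5031.9 bases with DMSO and 3769.6, 4276.6 and 4055.8 bases with NTX301. The ranges did not overlap, with a difference of -1256 bases (exact permutation p = 0.1, two-sided, the smallest that this design allows). The files list 3 HIC1 transcripts, which in GENCODE 29 are 3053, 3156 and 6711 bases long, the long one being present there in another version. With these lengths, the mean implies that the long transcript made up 65.8% to 66.7%, 61.6% to 62.7% and 52.8% to 54.1% of HIC1 molecules in the DMSO libraries. In the NTX301 libraries it made up 17.3% to 19.6%, 31.5% to 33.4% and 25.3% to 27.4%, where each range covers the lengths of the shorter transcripts. The shorter transcripts together then went from between 0.433 and 0.855 TPM with DMSO to between 3.23 and 5.22 TPM with NTX301. The long transcript went from between 0.855 and 0.979 to between 1.09 and 1.81 TPM. These are values derived from gene tables, not measured transcript levels. HIC1 overlaps SMG6, a gene of nonsense-mediated decay on the other strand, by 3403 bases from position 2059839 to its end at 2063241. In GENCODE 29 both shorter transcripts end at 2059686, so the overlap lies in the part that only the long transcript covers. Whether the counting used strand is not stated. SMG6 was at 11.8 ± 0.401 and 12.5 ± 0.946 TPM, and it fell by 0.29 ± 0.05 in the scaled counts. Its log2 fold change was -0.09 without a scaling factor and 0.07 on log2(TPM + 1), neither past the threshold. The part of SMG6 reads in HIC1, and so in the implied long transcript and its share, was not tested.

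**Figure D2:**
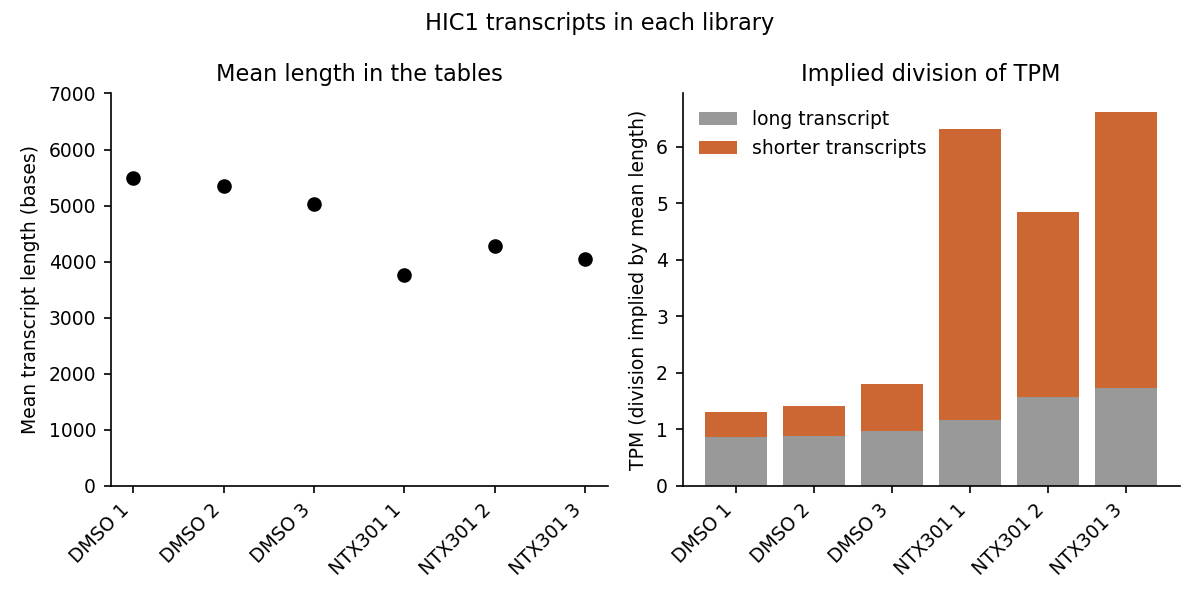
Left, mean HIC1 transcript length in bases in each library, as the tables give it; right, HIC1 TPM divided into the long and the shorter transcripts as that mean length implies (middle of each range, bars from 0). The 3 NTX301 libraries have shorter means (3769.6 to 4276.6 bases) than the 3 DMSO libraries, and most of their added TPM falls to the shorter transcripts. SMG6 overlaps the part that only the long transcript covers, and the part of its reads in this division was not tested.

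Of 7 genes listed as partners and targets of HIC1, 6 were tested, of which 2 rose and 3 fell (median log2 fold change 0.02). Over all tested genes 35.4% rose and 35.1% fell. Of the 2 that rose, ACKR3 passed the low-count filter through its NTX301 counts alone. ACKR3, a chemokine receptor, rose by 2.79 ± 0.29, from 0.200 ± 0.0557 to 1.61 ± 0.114 TPM. SIRT1, a deacetylase, rose by 0.88 ± 0.05 from 12.4 ± 0.935 to 26.4 ± 0.525 TPM. Both are known as genes that HIC1 represses. The corepressor gene CTBP1 fell by 0.48 ± 0.04, and EPHA2, another HIC1 target, by 0.33 ± 0.04, although on the TPM scale EPHA2 was not past the threshold. CTBP2 fell by 0.21 ± 0.04 and was not past the threshold on the TPM scale or without a scaling factor.

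RUNX3 encodes a transcription factor with a runt domain that acts with CBFB (ENSG00000020633.19, chromosome 1, 24899511 to 24965121, minus strand). It was at 0.51, 0.37 and 0.32 TPM with DMSO and 1.05, 1.09 and 1.15 TPM with NTX301, which corresponds to 69 and 180 counts over the 3 libraries of each treatment. The NTX301 libraries all lay above the DMSO libraries, although both levels were low. RUNX3 rose by 1.23 ± 0.22 on the log2 scale (adjusted p = 0.00031 by edgeR), and its rise ranged from 0.59 on log2(TPM + 1), which understates changes of low genes, to 1.47 over the alternatives. Its mean transcript length was 4173 bases in every library, so these tables show no shift among its transcripts.

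All 9 genes listed as RUNX factors and cofactors were tested, and 8 rose and 1 fell (median log2 fold change 0.37). Over all tested genes 35.4% rose and 35.1% fell. Without RUNX3 itself, 7 of the list rose and 1 fell (median 0.33). The partner CBFB rose by 0.45 ± 0.04 from 59.7 ± 4.81 to 94.3 ± 1.37 TPM. The corepressor genes TLE4 and TLE3 rose by 0.39 ± 0.06 and 0.39 ± 0.04, while TLE2 fell by 0.59 ± 0.09. RUNX1 rose by 0.37 ± 0.04 and reached 34.3 ± 2.09 TPM with NTX301, far above RUNX3. RUNX2 rose as well (0.28 ± 0.08), but not past the threshold without DMSO replicate 1.

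TCEAL7 encodes a small nuclear protein of the TCEAL and BEX family (ENSG00000182916.8, chromosome X, 103330196 to 103332326, plus strand). It had 0 counts in each of the 3 DMSO libraries and 15, 10 and 14 in the NTX301 libraries, at 1.07, 0.75 and 1.18 TPM. The treatments did not overlap. With NTX301, TCEAL7 stood at 11.7-fold a floor of 3 counts over the DMSO group, 0.0439 CPM. That value takes the NTX301 counts as exact, so it covers neither their counting error nor the spread between libraries. TCEAL7 fell short of the low-count filter of the main test.

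Of 7 tested genes of the TCEAL and BEX family, 0 rose and 4 fell, beside 35.4% and 35.1% of all tested genes. The median log2 fold change of these 7 was -0.23. At an unadjusted p under 0.05 the count that rose was also 0, and DESeq2 called 0. Without the low-count filter, where TCEAL7 itself enters the test, 2 genes of the family were called higher, TCEAL7 and BEX5. TCEAL8 fell by 0.60 ± 0.07 and BEX2, the nearest tested gene below TCEAL7 at 19149 bases, by 0.57 ± 0.14. TCEAL9, the nearest above at 24162 bases, was at 126 ± 1.43 and 148 ± 7.71 TPM and not past the threshold (0.06 ± 0.05). TCEAL4 fell by 0.35 ± 0.06 and BEX3 by 0.23 ± 0.04. Without a scaling factor and on the TPM scale, 3 genes of the family rose (TCEAL1, TCEAL3 and TCEAL9) and BEX3 was not past the threshold, nor was TCEAL4 on the TPM scale. BEX5, chosen after its values were seen, had 2 counts with DMSO and 16 with NTX301, a ratio of 7.19 (exact 95% counting interval 1.69 to 64.5).

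OPCML encodes an adhesion protein of the IgLON family, anchored to the cell membrane, that restrains receptor tyrosine kinases (ENSG00000183715.15, chromosome 11, 132414977 to 133532519, minus strand). It had 1, 1 and 0 counts in the DMSO libraries and 0, 1 and 0 in the NTX301 libraries. Both totals lie under the floor of 3 counts, so a difference was not detectable at this depth. A floor of 3 counts is 0.0395 CPM over the NTX301 libraries. In the same family NEGR1 rose by 2.42 ± 0.24, from 0.160 ± 0.010 to 1.07 ± 0.238 TPM, NTM had 0 counts in every library, and LSAMP was past the threshold, as lower, without NTX301 replicate 3 but not with all libraries (-0.51 ± 0.24). IGLON5 had 31 and 23 counts and was not tested.

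PYCARD encodes ASC, the adaptor that joins inflammasome sensors to caspase-1 (ENSG00000103490.14, chromosome 16, 31201485 to 31203450, minus strand). It was at 42.68, 46.22 and 42.31 TPM with DMSO and 53.69, 47.66 and 53.49 TPM with NTX301. On the TPM scale the treatments did not overlap. In CPM they did, at 18.0 ± 0.905 with DMSO and 18.0 ± 0.941 with NTX301. The mean transcript length, by which TPM divides, was 748.6 to 754.3 bases with DMSO and 731.0 to 743.6 with NTX301. These lengths did not overlap (exact permutation p = 0.1, two-sided, the smallest that this design allows). PYCARD's log2 fold change was -0.00 ± 0.07 (adjusted p = 1 by edgeR), and it was higher without a scaling factor (0.21, adjusted p = 0.017 by edgeR) and on log2(TPM + 1) (0.23, adjusted p = 0.0081 by limma). Those scales also move the median of all tested genes, to 0.21 and 0.17. PYCARD-AS1, which overlaps PYCARD by 1566 bases on the other strand, rose by 1.50 ± 0.29, from 0.637 ± 0.174 to 2.21 ± 0.107 TPM. Whether the counting used strand is not stated, and the part of PYCARD reads in this rise was not tested.

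Around PYCARD, 5 of 10 tested inflammasome genes rose and 3 fell (median log2 fold change 0.15). Over all tested genes 35.4% rose and 35.1% fell. Of the 5 that rose, NLRP3 passed the low-count filter through its NTX301 counts alone. IL1B lay near that filter with DMSO, with 38 counts over the 3 libraries. IL1B, an inflammasome substrate, rose by 2.64 ± 0.22 from 0.650 ± 0.187 to 4.67 ± 0.54 TPM, and the sensor NLRP3 by 2.46 ± 0.38 from 0.0867 ± 0.0404 to 0.463 ± 0.119 TPM. The pore-forming effector GSDMD fell by 1.17 ± 0.05 from 89.7 ± 6.2 to 45.6 ± 2.14 TPM, and the cytokine IL18 by 1.12 ± 0.08 from 88.5 ± 6.98 to 47.5 ± 2.25 TPM. CASP1, which encodes the protease itself, rose by 1.10 ± 0.14, and the sensor CARD8 by 0.94 ± 0.07. The 5 genes that rose lay at or under the 14.5 TPM of CARD8 with DMSO, and the 3 that fell at or over the 31.2 TPM of NEK7.

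**Figure D3:**
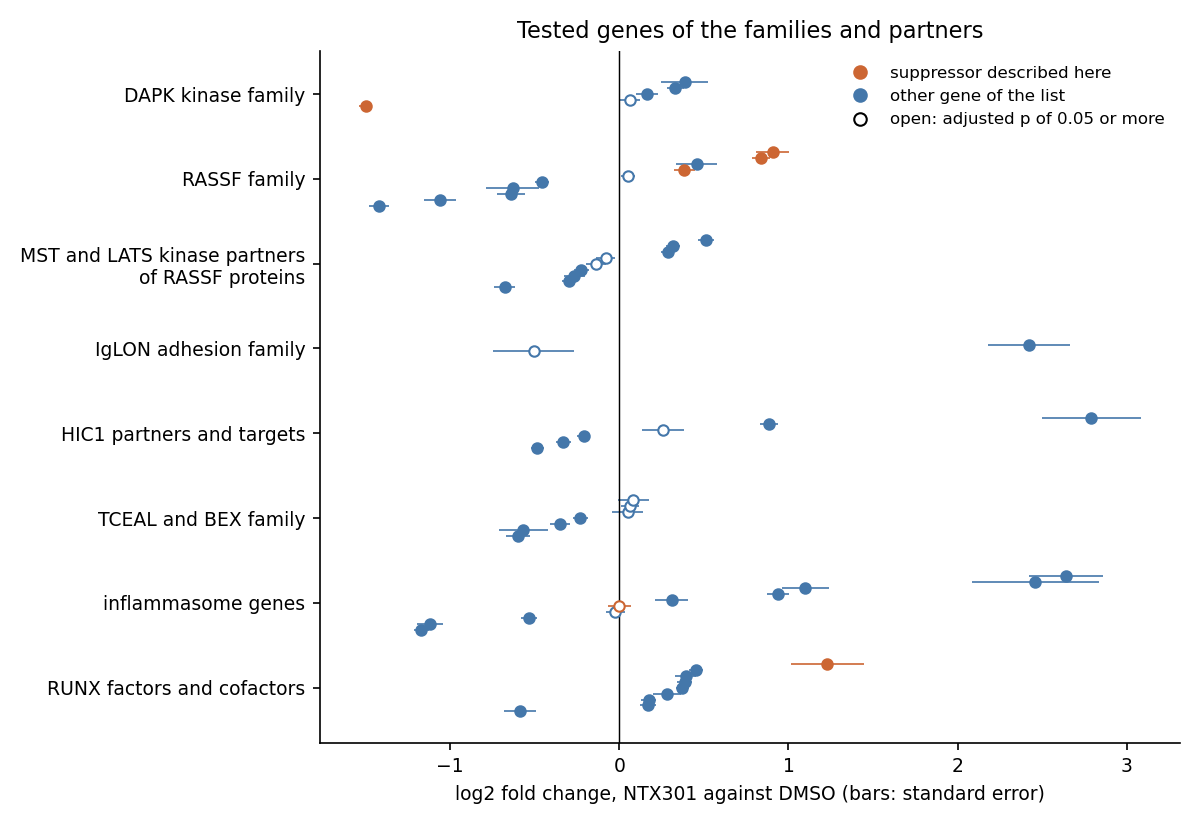
Log2 fold change with its standard error for each tested gene of the families and partner lists; orange points are the suppressors described here, blue points other genes, and open points have an adjusted p of 0.05 or more. DAPK1 lies apart from the other DAPK kinases, and the RASSF family falls on both sides of 0. Of the RUNX factors and cofactors, 8 of 9 lie to the right (35.4% of all tested genes rose).

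The sizes of change among the suppressors followed their starting level in part. RUNX3, RASSF2 and HIC1, under 2 TPM with DMSO, rose by 0.91 to 1.36 on the log2 scale, RASSF1 and RASSF5 between 2 and 20 TPM by 0.84 and 0.38, and PYCARD and DAPK1 over 20 TPM did not rise. The same tilt ran through the whole table. Among tested genes under 2 TPM with DMSO 42.1% rose and 13.8% fell, between 2 and 20 TPM 34.7% and 36.3%, and over 20 TPM 30.9% and 50.9%. The median log2 fold changes of these bins were 0.43, -0.04 and -0.14. A gene low with DMSO passes the filter more readily where NTX301 raises it, so the first bin favours rises by construction.

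**Figure D4:**
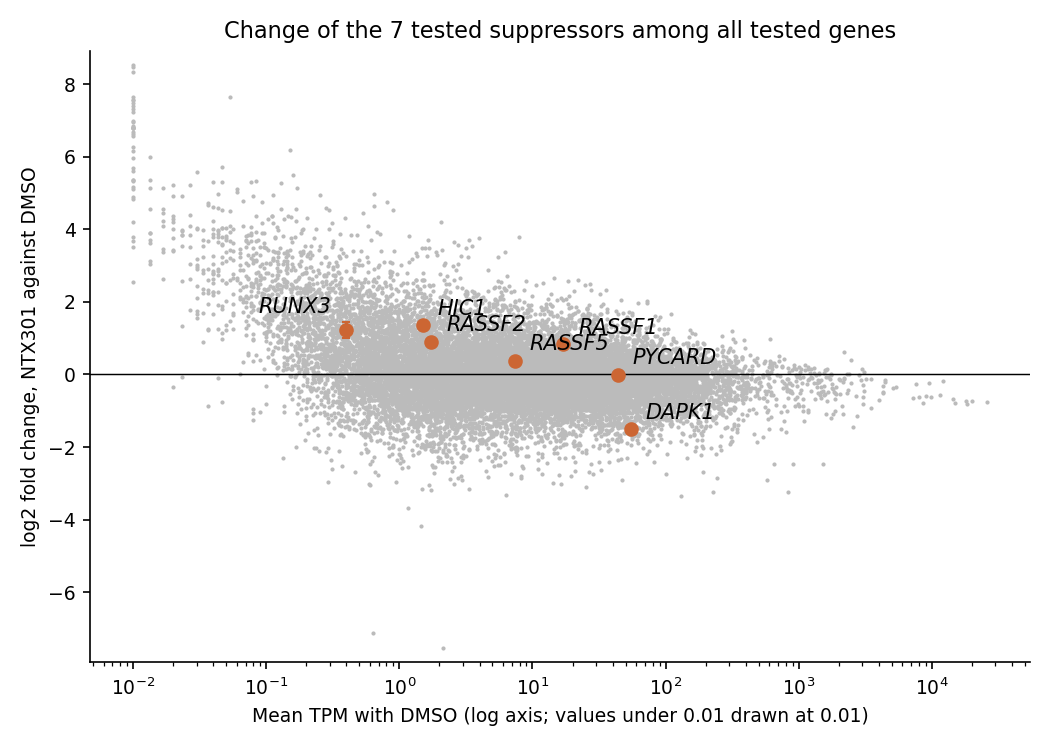
Log2 fold change of each tested gene (grey points) against its mean TPM with DMSO on a log axis, with the 7 tested suppressors in orange (bars, SE). RUNX3, HIC1 and RASSF2 lie at the left above 0, and DAPK1 at the right below 0, within the cloud of all genes.

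By profile over the 6 libraries, the genes most like the suppressors in log2 CPM were TAPBP for DAPK1 (Pearson r 0.9999), RGCC for HIC1 (0.9998), PMEPA1 for RASSF1 (0.9997), VDR for RASSF2 (0.9994), SH2D1B for RASSF5 (0.9988), IPO5 for RUNX3 (0.9987) and MT1L for PYCARD (0.9802). All points share the 2 treatments, and between 2283 and 4122 genes had r over 0.95 with each of the 6 suppressors that changed, against 7 for PYCARD. The likeness to those 6 is therefore mostly the contrast between treatments.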

How the data were processed

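The data are 6 RNA-seq libraries of OVCAR5 cells, 3 per treatment, grouped by the labels. Per the file headers, the authors deposited RSEM gene tables, whose expected counts are estimated reads per gene, not normalized, and whose deposited TPM values are scaled over all genes. RSEM also gives a mean transcript length per gene. No source used here gives the aligner, versions, build, annotation or strand setting. The 47 pseudoautosomal Y entries were added to their X copies, and 62639 of 62656 genes matched a name. Positions come from GENCODE 29 by identifier.

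Counts were rounded and tested with edgeR 4.0.16 (R 4.3.3): filterByExpr (19029 genes), TMM factors, glmQLFit and glmQLFTest with treatment as the only term, adjusted by Benjamini-Hochberg with a threshold of 0.05. The code was tested on simulated data. CPM uses TMM-scaled totals. Each standard error is the log2 fold change divided by the root of F. Alternatives used DESeq2 1.42.0, limma 3.58.1, other scalings and filters, a replicate block and each library left out.

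The suppressors and lists were chosen with earlier results of these data known. All suppressors are named. From each list up to 4 genes that changed were named by size of change, with others where stated or for completeness of a family, together with neighbouring genes and the gene most alike in profile. The 10 nM dose and the methylation arrays that the labels mention were not analysed here.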

Additional observations from a re-analysis of the deposited data

How the results depend on the processing

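The calls on DAPK1, RASSF1, RASSF2, RASSF5, HIC1 and RUNX3 kept their direction and stayed past the threshold in all 15 alternatives, with log2 fold changes of -1.53 to -1.24, 0.80 to 1.06, 0.81 to 1.11, 0.34 to 0.60, 1.29 to 1.90 and 0.59 to 1.47 in this order. The number of suppressors higher was 5 or 6: the sixth was PYCARD without a scaling factor and on both TPM scales, and TCEAL7 without a low-count filter and with any 1 library left out, where it entered the test through its NTX301 counts alone. PYCARD had a log2 fold change above 0, opposite to its sign in the main test, with DESeq2's factors in edgeR (0.0035), without a scaling factor (0.206), with DESeq2 (0.0040), on log2(TPM + 1) (0.233) and log2(TPM + 0.1) (0.237), with at least 1 CPM in 3 libraries (0.0188), without DMSO replicate 2 (0.0263) and without NTX301 replicate 2 (0.0406). With any 1 library left out it ranged from -0.0489 to 0.0406. Over all genes, 4318 were lower on log2(TPM + 1) and 4297 on log2(TPM + 0.1), against 6677, and of the list genes beside the suppressors 16 were lower on either, against 26. Of all calls 50.2% were higher in the main test, 65.0% without a scaling factor and 66.7% on the TPM scales. Same-numbered libraries did not deviate together (r of deviations 0.0805, -0.0277 and 0.0431), so the numbers were not taken as pairs. With the replicate block 6837 genes were higher and 6749 lower, with 5 suppressors higher and 1 lower, so the block changed no call on them, while LSAMP was called lower with it. Depth limits OPCML and TCEAL7, whose counts were at most 15 in any library.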

Other observations

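Among 38 other suppressors reported as methylated in ovarian carcinoma, 24 were tested, of which 12 rose and 6 fell. Beside these stand 35.4% of all tested genes that rose and 35.1% that fell. The median log2 fold change of the list was 0.24, against -0.00049 for all tested genes. ANGPTL2, a secreted angiopoietin-like protein, went from 1 count in all with DMSO to 78 with NTX301, and the ratio was 70.1 (exact 95% counting interval 12.2 to 2805). CDH13, a cadherin anchored to the membrane by lipid, had 1 and 53 counts, a ratio of 47.65 (8.19 to 1917). ANGPTL2 and CDH13 passed the low-count filter through their NTX301 counts alone. Both could therefore enter the count and median of the list only as rises. SPARC, a matrix glycoprotein, rose by 3.78 ± 0.05 from 7.88 ± 0.433 to 126 ± 0.828 TPM. TIMP3, an inhibitor of metalloproteinases, rose by 1.67 ± 0.09 from 2.21 ± 0.197 to 8.19 ± 0.305 TPM. The other genes of this list named here were chosen after their values were seen. TFPI2, a protease inhibitor, and ARL11, a small GTPase, were at 0 with DMSO, as TCEAL7 was. TFPI2 had 9, 12 and 13 counts with NTX301, 10.2-fold the floor of 3 counts over the DMSO group. ARL11 had 11, 15 and 4 counts with NTX301, 8.99-fold the same floor. These values also take the NTX301 counts as exact. CDKN2A, CDKN2B, WIF1, SOX1 and PAX1 had 0 counts in every library of both treatments. SFRP5, a secreted WNT antagonist, fell by 1.47 ± 0.06 from 55.8 ± 2.76 to 23.3 ± 1.64 TPM, and the repair gene MGMT fell by 1.16 ± 0.07 from 41.2 ± 1.42 to 21.2 ± 1.33 TPM.

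The tested genes next to the suppressors moved in either direction. ZMYND10, 129 bases from RASSF1, rose by 0.88 ± 0.28 from 0.503 ± 0.0709 to 1.07 ± 0.243 TPM, although not past the threshold with DESeq2 or without DMSO replicate 1 or 2 or NTX301 replicate 3, and TUSC2 on the other side, at 1530 bases, was not past the threshold (-0.16 ± 0.08). Next to DAPK1, the lysosomal protease gene CTSL rose by 0.90 ± 0.04 at a distance of 16885 bases, where DAPK1 fell. Next to RASSF2, the prion protein gene PRNP, at 78432 bases, rose by 0.34 ± 0.04. The ascorbate transporter gene SLC23A2, at 28710 bases, fell by 0.54 ± 0.04. Nearest above RASSF5, at 46087 bases, DYRK3 rose by 1.74 ± 0.13 from 1.46 ± 0.321 to 6.35 ± 0.808 TPM. The nearest tested genes to HIC1 were DPH1 at 10723 bases and SRR at 240141 bases. Those to RUNX3 were CLIC4 at 55186 bases and SYF2 at 257557 bases. All of these fell, by 0.28 to 0.52, although HIC1 and RUNX3 rose. On the TPM scale and without a scaling factor DPH1 and CLIC4 were still lower, and SRR and SYF2 were not past the threshold, nor was SRR without DMSO replicate 1 or NTX301 replicate 1.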
